A study of Mus musculus with 8 samples.

Results

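The genes described here carry out or control the synthesis of cholesterol and of fatty acids. A list of 28 mouse genes was taken and the probe sets annotated to 1 of them were collected from both arrays of the series. The list holds 16 sterol pathway enzymes, 4 sterol regulators and 8 genes of fatty acid synthesis, elongation and desaturation. On the U74Av2 array 34 of 12422 probe sets belonged to 22 of these genes, out of 8251 genes named there, and on the MOE430v2 array 63 of 45037 probe sets belonged to 27, out of 18193. Acat2 is not analysed here.

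The series compared gene expression between wild-type and Foxa2 null mouse embryos at E7.5, a stage of gastrulation at which the transcription factor Foxa2 is needed to form the node, notochord and definitive endoderm. Total RNA came from 2 pools per genotype, of 53 and 50 wild-type embryos and of 53 and 48 Foxa2 null embryos. Each of the 4 extracts was hybridised to 1 U74Av2 array and 1 MOE430v2 array, so that both platforms measured the same RNA. The question put to the members was whether their signals differed between Foxa2 null and wild-type pools, by how much, and in which arm of the pathway.

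Wild-type embryos came from matings of ICR mice. Foxa2 null embryos were made from Foxa2 null embryonic stem cells aggregated with GFP-positive tetraploid hosts that were wild-type for Foxa2, so the embryo proper lacked Foxa2 while the visceral endoderm and other extra-embryonic tissue came from the host. The labels of the mutant MOE430v2 arrays also name ICR, so which strain the mutant cells had could not be settled. All 4 pools held embryos from mid-streak to head-fold, from which the extra-embryonic region had been cut away. The embryo proper was kept, in the null embryos with its host-derived visceral endoderm. The labels give mixed gender for the wild-type arrays and the mutant MOE430v2 arrays. By the staging table of the study wild-type pool 2 was the youngest. Genotype, embryo origin and the clone of embryonic stem cells cannot be told apart in this design. In pools of whole tissue, fewer cells of a type and less RNA per cell cannot be told apart either.

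Cholesterol is built from acetyl-CoA. The mevalonate arm turns acetyl-CoA into isoprenoid units, these are joined to squalene, and squalene is closed to a ring and trimmed to cholesterol by a chain of endoplasmic reticulum enzymes. Fatty acids are built from the same acetyl-CoA by carboxylation and by fatty acid synthase, and are then lengthened and desaturated. Both branches are controlled by the SREBP transcription factors, which are released from the endoplasmic reticulum when sterols run low and which act on many promoters together with the CCAAT-binding factor NF-Y. The gastrulating mouse embryo needs cholesterol for membranes and for the modification of Hedgehog proteins, and it also takes up lipid that the visceral endoderm packs into lipoproteins.

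The promoters of the members were read to see what the genes share beyond their enzymes. RefSeq windows from 250 bases before to 50 bases after a transcription start (GRCm38.p6) were given for 21 of the 28 genes, 26 windows in all. The CCAAT box, searched as CCAAT on both strands, lay in 18 of these 26 windows (69.2%) and in 37.4% of all 32851 promoters of the same length. For promoters of protein-coding genes the share was 38.2%. The sterol regulatory element TCACNCCAC was found on either strand in 1 window, that of Hmgcs1, and in 1.24% of all promoters. The forkhead core TGTTTAC lay in 1 window, that of Elovl6, and in 3.65% of all promoters. A match of letters is a description and not a binding site. Below are the 150 bases before the start of 5 members that the expression results turn on, 4 with a probe set at an unadjusted p under 0.05 and Fasn, the fatty acid synthase gene. Capitals mark CCAAT, its reverse complement ATTGG, and the TCACNCCAC match in Hmgcs1. In Fasn a forward and a reverse match overlap.
Hmgcs1 (GRCm38.p6 chr13:119690201-119690350, + strand): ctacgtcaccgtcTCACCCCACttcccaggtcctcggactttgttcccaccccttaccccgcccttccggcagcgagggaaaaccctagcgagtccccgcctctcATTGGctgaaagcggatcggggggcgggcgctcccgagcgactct
Mvk (GRCm38.p6 chr5:114444119-114444268, + strand): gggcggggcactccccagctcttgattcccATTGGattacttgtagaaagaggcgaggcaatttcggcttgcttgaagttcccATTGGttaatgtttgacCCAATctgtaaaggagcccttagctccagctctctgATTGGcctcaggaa
Cyp51 (GRCm38.p6 chr5:4104698-4104847, - strand): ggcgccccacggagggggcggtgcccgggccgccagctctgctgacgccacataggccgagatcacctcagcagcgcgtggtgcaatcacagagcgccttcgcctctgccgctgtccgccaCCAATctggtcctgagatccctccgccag
Fasn (GRCm38.p6 chr11:120824548-120824697, - strand): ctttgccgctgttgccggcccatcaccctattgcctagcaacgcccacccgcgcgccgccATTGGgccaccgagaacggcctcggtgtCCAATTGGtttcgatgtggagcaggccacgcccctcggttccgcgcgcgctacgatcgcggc
Fads2 (GRCm38.p6 chr19:10101504-10101653, - strand): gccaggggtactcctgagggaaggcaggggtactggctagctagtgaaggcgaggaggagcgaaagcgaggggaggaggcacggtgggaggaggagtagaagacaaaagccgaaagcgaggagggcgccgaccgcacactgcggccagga
The Mvk window held 4 CCAAT matches, that of Fasn 3, those of Hmgcs1 and Cyp51 1 each, and that of Fads2 0. The 5 genes were picked with their ratios known, so no link between CCAAT matches and the direction of the ratios is drawn from them. Idi1 had such a probe set too, at an unadjusted p under 0.05 by limma, and CCAAT matches in its window. The Idi1 window is not printed.

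The arrays differed little in overall brightness. The median signal was 48.2 to 52.8 on the U74Av2 arrays and 155 to 165 on the MOE430v2 arrays, and the median log2 ratio of all genes tested was -0.01 and -0.02. The dimmest 30% of probe sets were left out, and 31 member probe sets of 21 genes were tested on U74Av2 and 58 of 27 genes on MOE430v2. The targeted gene Foxa2 was at -1.25 on U74Av2 and -0.88 on MOE430v2 (log2 ratio, null minus wild-type). On both platforms its null pools lay below its wild-type pools. Pou5f1, which marks the epiblast that the labels name, read between 10.45 and 10.88 on U74Av2 and between 11.95 and 12.38 on MOE430v2 in all 4 pools, with overlapping genotypes. Of 11 epiblast and embryo proper markers 8 were tested on U74Av2 and 11 on MOE430v2, with median ratios of 0.54 (6 above 0) and 0.19 (8 above 0). At an unadjusted p under 0.05, 4 were higher on U74Av2, and 5 were higher and 1 lower on MOE430v2, beside 10.1% and 13.3% of all genes in either direction, and 0 passed the adjusted threshold by limma. Eomes had ratios of 1.92 and 1.34, Nanog of 0.79 and 0.85 and Mesp1 of 0.86 and 0.76, which were named after their values were seen. The list also held 2 markers below 0 on U74Av2 and 3 on MOE430v2, with lowest ratios of -0.69 and -0.37. The log2 of the summed signal of this list was 11.35 to 11.60 in wild-type and 11.40 to 11.98 in null pools on U74Av2, and 14.65 to 14.93 and 14.76 to 15.16 on MOE430v2. The part of these markers or of embryo stage in the ratios of the members was not tested.

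No member probe set passed an adjusted p of 0.05 on either platform by limma with Benjamini-Hochberg adjustment over all probe sets tested, 0 of 31 on U74Av2 and 0 of 58 on MOE430v2. Among all probe sets 0.276% passed on U74Av2 and 0.435% on MOE430v2. When Foxa2 null pool 2 was left out, 1 member probe set passed on MOE430v2, the Scd2 probe set 1415824_at, with the null pool lower. At an unadjusted p under 0.05, 1 member probe set of 31 was reached on U74Av2 (background 10%) and 6 of 58 on MOE430v2 (background 12.1%). When the platforms were averaged per extract, 0 of 21 member genes passed the adjusted threshold (background 2.41%) and 3 of 21 had an unadjusted p under 0.05 (background 15.3%). With 2 pools against 2, an exact permutation test of a single gene cannot give a p below 0.333, so the order of the pools is given with each value.

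The median log2 ratio over the member genes was -0.07 on U74Av2 and -0.03 on MOE430v2. In the brightest probe set of each gene the ratios ran from -0.41 to 0.49 on U74Av2 and from -0.50 to 0.38 on MOE430v2. Over all tested member probe sets they ran from -1.07 to 0.49 and from -1.50 to 0.50. In the brightest probe set of each of the 27 genes on MOE430v2 the 95% interval of the ratio stayed within a 2-fold change in either direction, and for 15 genes it stayed within 1.5-fold. On U74Av2 the counts were 18 and 9 of 21. For the remaining members the interval held differences above 1.5-fold. Among all genes tested the counts were 8954 and 4644 of 14180 on MOE430v2 and 4561 and 1988 of 6410 on U74Av2. The intervals of Fads1 on U74Av2 and of Cyp51 and Fads2 on MOE430v2 did not include 0. An interval without 0 is the same as an unadjusted p under 0.05 by limma. Of all genes 10.1% on U74Av2 and 13.3% on MOE430v2 reached that.

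**Figure D1:**
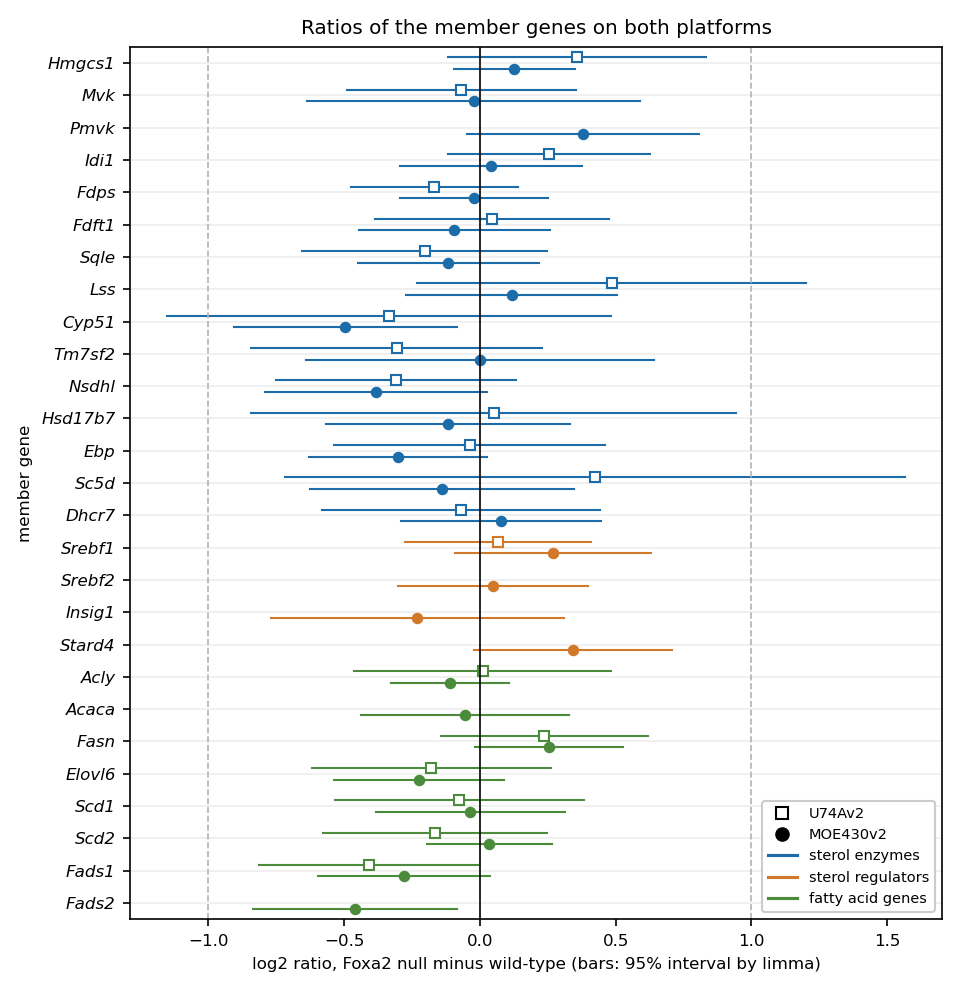
Log2 ratio (Foxa2 null minus wild-type) (horizontal axis) of each member gene (vertical axis) on U74Av2 (open squares) and MOE430v2 (filled circles), with bars for the 95% interval by limma and dashed lines at a 2-fold change. The points lie between -0.50 and 0.49, and most intervals cross 0.

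The medians of the 3 groups of members were set beside those of all genes, -0.01 on U74Av2 and -0.02 on MOE430v2. On MOE430v2 that of the regulators lay furthest from it, over 4 genes with ratios from -0.23 to 0.34. The 14 sterol enzymes tested on U74Av2 had a median log2 ratio of -0.05, with 6 above and 8 below 0, and the 15 on MOE430v2 had -0.02, with 5 above and 10 below. The 4 regulators had a median of 0.16 on MOE430v2, 3 of them above 0, and only Srebf1 was tested on U74Av2 (0.07). The fatty acid genes had a median of -0.12 on U74Av2 (2 of 6 above 0) and -0.08 on MOE430v2 (2 of 8 above 0). With the platforms averaged the medians were -0.04 for 14 sterol enzymes, 0.17 for Srebf1 and -0.06 for 6 fatty acid genes, beside -0.01 for all 5933 genes.

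The 2 null pools lay on the same side of both wild-type pools for 12 of the 31 member probe sets on U74Av2, 9 lower (background 21.4%) and 3 higher (background 18.6%). On MOE430v2 this held for 26 of 58, 14 lower (background 21.8%) and 12 higher (background 21.5%). The lower share was 29.0% on U74Av2 and 24.1% on MOE430v2, and the higher share 9.68% and 20.7%. By gene the counts were 4 lower and 2 higher of 21 on U74Av2 (background 21.1% and 19.2%) and 8 lower and 6 higher of 27 on MOE430v2 (background 23.7% and 21.7%). The MOE430v2 shares of separated genes were thus close to those of the whole array. The ratio was larger than the gap between the pools of either genotype for 4 of 21 genes on U74Av2 (19.0%, all genes 28.0%) and for 12 of 27 on MOE430v2 (44.4%, all genes 32.2%).

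**Figure D2:**
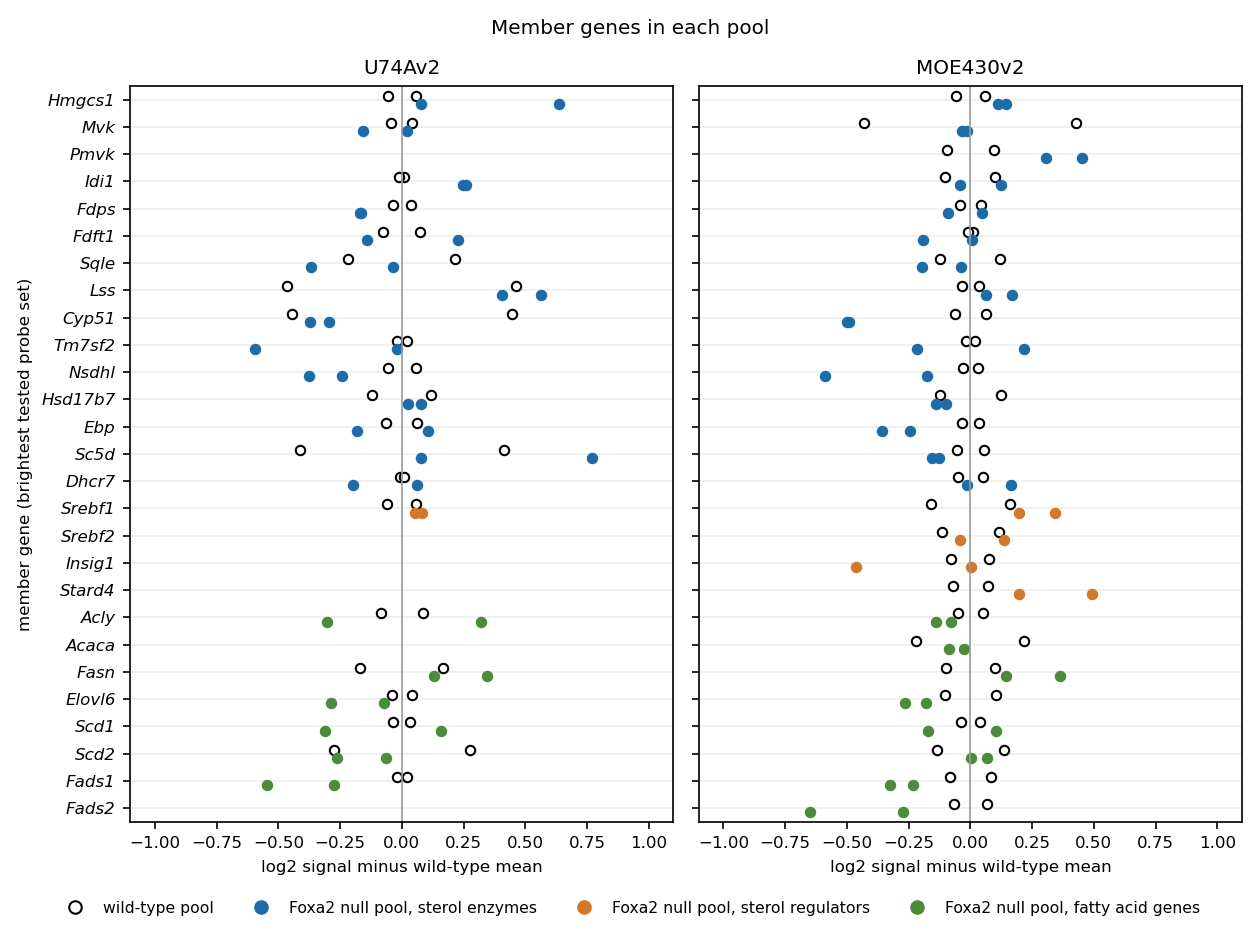
Log2 signal of each member gene minus its wild-type mean (horizontal axis) in the 2 wild-type pools (open circles) and the 2 Foxa2 null pools (filled circles) on each platform, for the brightest tested probe set. Fads1, Nsdhl and Elovl6 have both null pools to the left of both wild-type pools on both platforms, and Hmgcs1 has both to the right.

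Hmgcs1, the HMG-CoA synthase that opens the mevalonate arm, read 7.97 and 8.08 on the log2 signal scale in wild-type and 8.10 and 8.66 in Foxa2 null pools on U74Av2. Its brightest MOE430v2 probe set, 1433443_a_at, read 12.17 and 12.05 in wild-type and 12.26 and 12.22 in null pools. The null pools were the higher ones on both platforms, but on U74Av2 1 null pool lay almost level with the wild-type pools. The ratios were 0.36 (95% interval -0.12 to 0.83) and 0.13 (-0.10 to 0.35). The U74Av2 ratio was 0.08 without null pool 2 and 0.64 without null pool 1. A second probe set, 1433444_at, had the opposite sign, with 11.13 and 11.45 in wild-type and 10.66 and 10.79 in null pools (ratio -0.56, SE 0.14, adjusted p = 0.156 by limma with Benjamini-Hochberg). The 3 other Hmgcs1 probe sets on MOE430v2 had ratios of -0.04, -0.06 and -0.50, and their pools overlapped. The sign for Hmgcs1 therefore depended on the probe set.

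Mvk encodes mevalonate kinase. Its probe set 1430619_a_at had the smallest adjusted p of all members, 0.0975 by limma with Benjamini-Hochberg, with signals of 9.08 and 9.28 in wild-type and 8.21 and 8.20 in Foxa2 null pools and a ratio of -0.98 (95% interval -1.46 to -0.50). The probe set that stands for Mvk, 1418052_at, with about the same wild-type mean, read 8.74 and 9.60 in wild-type and 9.14 and 9.16 in null pools. In that probe set the null pools lay between the wild-type pools and the ratio was -0.02. On U74Av2 Mvk read 7.40 and 7.31 in wild-type and 7.37 and 7.20 in null pools, again overlapping, with a ratio of -0.07. Of these 3 Mvk probe sets 1 thus separated the genotypes. The dim U74Av2 probe set 95632_f_at had a ratio of 0.42 with an SE of 0.63.

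Pmvk, the next kinase of the arm, was measured on MOE430v2 with 8.88 and 9.07 in wild-type and 9.42 and 9.28 in null pools. The null pools were the higher ones, with a ratio of 0.38 (95% interval -0.05 to 0.81, adjusted p = 0.47 by limma with Benjamini-Hochberg), the highest there among the probe sets that stand for a gene. Idi1, the isomerase that makes the reactive isoprenoid unit, read 7.80 and 7.78 in wild-type and 8.04 and 8.05 in null pools on U74Av2. The genotypes differed by more than either pair of pools, and the ratio was 0.25 (SE 0.16). On MOE430v2 its brightest probe set had a ratio of 0.04 with overlapping pools, while 1423804_a_at read 9.16 and 9.11 in wild-type and 9.47 and 9.60 in null pools (ratio 0.40, unadjusted p = 0.0468, adjusted p = 0.405 by limma with Benjamini-Hochberg). All 3 tested Idi1 probe sets had ratios above 0.

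Fdps, which makes farnesyl diphosphate, read 9.52 and 9.59 in wild-type and 9.38 and 9.39 in null pools on U74Av2, a ratio of -0.17 with both null pools lower. On MOE430v2 the pools overlapped and the ratio was -0.02. The other tested Fdps probe sets on U74Av2 had ratios of 0.09, with overlapping pools, and 0.31, with both null pools higher. Fdft1, the squalene synthase, had ratios of 0.04 and -0.09, and Sqle, the squalene epoxidase, of -0.20 and -0.12, with overlapping pools on both platforms. The other Fdft1 probe sets on MOE430v2 were at 0.26 each, and in 1438322_x_at both null pools were higher. Lss, which closes squalene epoxide to lanosterol, had a ratio of 0.49 on U74Av2, where wild-type pool 1 (6.59) lay between the null pools (6.69 and 6.53) and wild-type pool 2 was at 5.66. Without wild-type pool 2 the Lss ratio was 0.02. On MOE430v2 Lss read 9.29 and 9.36 in wild-type and 9.39 and 9.49 in null pools (ratio 0.12), and all 3 of its probe sets there had ratios above 0.

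Cyp51, the lanosterol demethylase, had the lowest ratio on MOE430v2 among the probe sets that stand for a gene. Its probe set 1450646_at read 9.49 and 9.37 in wild-type and 8.93 and 8.94 in Foxa2 null pools. Both null pools lay well below both wild-type pools (ratio -0.50, 95% interval -0.91 to -0.09, unadjusted p = 0.0229, adjusted p = 0.324 by limma with Benjamini-Hochberg). The dimmer Cyp51 probe set 1422533_at had a ratio of 0.31, with both null pools higher, and the mean of the Cyp51 probe sets was at -0.09. On U74Av2 Cyp51 read 6.05 and 5.16 in wild-type and 5.23 and 5.31 in null pools, so the null pools lay between the wild-type pools, and the ratio was -0.33 (SE 0.36).

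Nsdhl, a decarboxylating sterol dehydrogenase, was lower in both null pools on both platforms. On U74Av2 it read 7.12 and 7.24 in wild-type and 6.94 and 6.80 in null pools (ratio -0.31), and on MOE430v2 9.93 and 9.99 in wild-type and 9.38 and 9.79 in null pools (ratio -0.38, 95% interval -0.79 to 0.03). The MOE430v2 ratio was -0.17 without null pool 1 and -0.58 without null pool 2. Averaged over the platforms its ratio was -0.35 (SE 0.14, unadjusted p = 0.0382, adjusted p = 0.294 by limma with Benjamini-Hochberg). Its probe set 98630_at on U74Av2 had a ratio of -0.22 with both null pools lower, and the dimmer 93868_at 0.15 with overlapping pools. Ebp, the sterol isomerase, had a ratio of -0.04 on U74Av2 with overlapping pools. On MOE430v2 it read 10.18 and 10.25 in wild-type and 9.86 and 9.97 in null pools (ratio -0.30, 95% interval -0.63 to 0.03), and the null pools were the lower ones.

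Nsdhl and Ebp are the 2 members on the X chromosome. Over all X-linked genes the median was -0.01 for 184 genes on U74Av2 and -0.02 for 476 genes on MOE430v2. Xist, the RNA that silences an X chromosome in female cells, had a ratio of -1.76 on U74Av2 and -1.13 on MOE430v2, with Benjamini-Hochberg adjusted p-values of 0.0421 and 0.066 by limma. It was read in a list of 5 X inactivation and Y-linked genes, with ratios up to 0.46 and 0.79. Of these genes 1 of 3 tested on U74Av2 and 2 of 4 on MOE430v2 were above 0. At an unadjusted p under 0.05 by limma, 1 was lower on U74Av2, and 2 were lower and 1 higher on MOE430v2 (background 10.1% and 13.3%). The part of the sex makeup of the pools in the Nsdhl and Ebp ratios was not tested.

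In the probe sets that stand for a gene, none of the remaining enzymes of the sterol ring was separated on both platforms. Tm7sf2, a sterol reductase, had ratios of -0.31 on U74Av2 and 0.00 on MOE430v2 with overlapping pools. Its dim U74Av2 probe set 92437_at read 4.65 and 4.55 in wild-type and 3.51 and 3.77 in null pools (ratio -0.96, SE 0.49). Hsd17b7, a sterol ketone reductase, had ratios of 0.05 and -0.12, with 2 of its 4 probe sets on MOE430v2 above 0 and 2 below. Sc5d, the lathosterol desaturase, had a ratio of 0.42 on U74Av2 from a dim probe set with an SE of 0.50. Its other probe set there, also dim, was at -1.07 (SE 0.50), with both null pools lower. On MOE430v2 Sc5d read 8.60 and 8.71 in wild-type and 8.50 and 8.53 in null pools, a ratio of -0.14 with both null pools slightly lower. Its dimmer probe sets there had ratios of -0.31, with both null pools lower, and 0.24, with overlapping pools. Dhcr7, which makes cholesterol from its direct precursor, had ratios of -0.07 and 0.08 with overlapping pools.

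Among the regulators, Srebf1 encodes the SREBP form that favours fatty acid genes. It read 10.27 and 9.95 in wild-type and 10.45 and 10.31 in Foxa2 null pools on MOE430v2. The null pools lay above both wild-type pools, although wild-type pool 1 and null pool 2 were almost level (ratio 0.27, 95% interval -0.09 to 0.63). On U74Av2 it read 8.70 and 8.58 in wild-type and 8.69 and 8.72 in null pools, which overlapped (ratio 0.07). Srebf2, whose product favours sterol genes, had ratios of 0.05 and 0.04 from its 2 MOE430v2 probe sets, both with overlapping pools.

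Insig1, which holds the SREBP complex in the endoplasmic reticulum and is itself a target of SREBP, read 8.84 and 8.68 in wild-type and 8.30 and 8.76 in null pools on MOE430v2. The pools overlapped and the ratio of -0.23 came from null pool 1. Its U74Av2 probe set was among the dim ones that were not tested. Stard4, a carrier of cholesterol between membranes, read 9.99 and 9.85 in wild-type and 10.41 and 10.12 in null pools. Both null pools were higher, with a ratio of 0.34 (95% interval -0.02 to 0.71, adjusted p = 0.443 by limma with Benjamini-Hochberg). The other Stard4 probe sets had ratios of 0.24 and 0.40, so all 3 were above 0.

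In the synthesis of fatty acids, Acly supplies acetyl-CoA from citrate. It had ratios of 0.01 on U74Av2 and -0.11 on MOE430v2, where it read 12.43 and 12.33 in wild-type and 12.24 and 12.30 in null pools. All 4 Acly probe sets on MOE430v2 had ratios below 0, the 3 bright ones between -0.24 and -0.03. Acaca, the acetyl-CoA carboxylase that commits carbon to fatty acids, had a ratio of -0.06 with overlapping pools, and its dimmer probe set a ratio of 0.50 with both null pools higher.

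Fasn, the fatty acid synthase, read 8.99 and 9.33 in wild-type and 9.29 and 9.51 in null pools on U74Av2. The pools overlapped, with a ratio of 0.24. On MOE430v2 it read 11.88 and 11.68 in wild-type and 12.15 and 11.93 in null pools, and both null pools were higher (ratio 0.26, 95% interval -0.02 to 0.53). Averaged over the platforms the ratio was 0.25 (SE 0.10, unadjusted p = 0.037, adjusted p = 0.29 by limma with Benjamini-Hochberg). Elovl6, which lengthens palmitate to stearate, was lower in both null pools on both platforms, with 7.28 and 7.20 in wild-type and 6.95 and 7.16 in null pools on U74Av2 and 10.77 and 10.56 in wild-type and 10.48 and 10.40 in null pools on MOE430v2. The ratios were -0.18 and -0.22, and of 5 Elovl6 probe sets 4 had ratios below 0. The mean of the Elovl6 probe sets on MOE430v2 was at -0.0095.

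The desaturases included the members with the lowest ratios of the fatty acid arm. Fads1, the front-end desaturase that makes arachidonic acid, read 8.07 and 8.11 in wild-type and 7.55 and 7.82 in Foxa2 null pools on U74Av2. It was the only member probe set on that platform with an unadjusted p under 0.05 (0.0475, ratio -0.41, 95% interval -0.81 to -0.01, adjusted p = 0.486 by limma with Benjamini-Hochberg). On MOE430v2 it read 10.43 and 10.59 in wild-type and 10.28 and 10.18 in null pools, a ratio of -0.28. On both platforms the null pools were the lower ones. Averaged over the platforms the ratio was -0.34 (SE 0.13, adjusted p = 0.222 by limma with Benjamini-Hochberg). A dimmer Fads1 probe set on MOE430v2, 1440444_at, had a ratio of 0.50 with overlapping pools, since wild-type pool 2 was at 7.51 and the other pools between 8.35 and 8.59.

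Fads2, the desaturase at the entry to the same pathway and the neighbour of Fads1 on chromosome 19, read 10.39 and 10.52 in wild-type and 9.80 and 10.18 in null pools on MOE430v2. Both null pools were lower (ratio -0.46, 95% interval -0.84 to -0.09, unadjusted p = 0.0216, adjusted p = 0.317 by limma with Benjamini-Hochberg). The ratio was -0.27 without null pool 1 and -0.64 without null pool 2. Its other probe sets had ratios of -0.32 and -1.50, so all 3 were below 0, and in the dimmest the value rested on null pool 1, at 4.52 against 6.67 in null pool 2.

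Scd1 and Scd2 encode stearoyl-CoA desaturases of close sequence, which introduce a double bond into saturated fatty acids. Scd1 had ratios of -0.08 and -0.03 with overlapping pools. A further Scd1 probe set on each platform separated the pools, with both null pools lower on U74Av2 (-0.30) and both higher on MOE430v2 (0.28). Scd2 read 11.70 and 11.15 in wild-type and 11.36 and 11.16 in null pools on U74Av2, and 13.62 and 13.35 in wild-type and 13.49 and 13.55 in null pools on MOE430v2. In these probe sets the null pools lay between the wild-type pools on both platforms (ratios -0.16 and 0.03). The Scd2 probe set 1415824_at read 10.67 and 10.98 in wild-type and 9.78 and 10.51 in null pools (ratio -0.68, SE 0.23, adjusted p = 0.272 by limma with Benjamini-Hochberg). This was the probe set that passed without null pool 2. The third Scd2 probe set on MOE430v2 had a ratio of -0.08 with overlapping pools. On U74Av2 a second bright Scd2 probe set, 162077_f_at, had a ratio of 0.18, also with overlapping pools.

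Probe sets of the same gene often differed in the sign of their ratio. Of 8 member genes with several tested probe sets on U74Av2, 5 had ratios on both sides of 0, and of 17 such genes on MOE430v2, 10 did. The share over all genes with several tested probe sets was not computed, so this is not shown to be particular to the members. Some splits rested on a dim probe set, as for Mvk on U74Av2 (95632_f_at, SE 0.63). The median range between the lowest and highest ratio of a gene was 0.47 on U74Av2 and 0.56 on MOE430v2, which is more than most of the ratios themselves. Of the 5 MOE430v2 probe sets lower at an unadjusted p under 0.05, 1 each belonged to Hmgcs1, Mvk, Cyp51, Scd2 and Fads2. Those of Hmgcs1, Mvk, Cyp51 and Scd2 stood beside another probe set of the gene with a ratio near or above 0. The genes whose probe sets all lay on the same side of 0 on MOE430v2 were Idi1, Lss, Srebf2 and Stard4 above 0 and Mvk, Acly and Fads2 below 0.

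**Figure D3:**
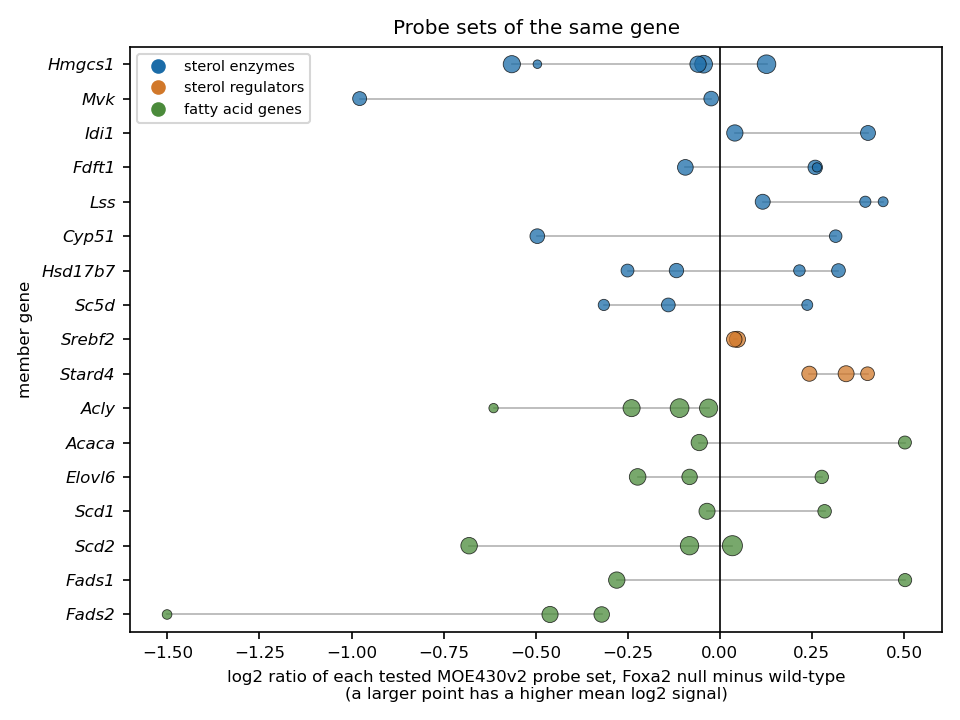
Log2 ratio (Foxa2 null minus wild-type) (horizontal axis) of every tested MOE430v2 probe set of the 17 member genes with several (vertical axis), with larger points for a higher mean signal and a grey line over the range. For 10 of the 17 genes the points lie on both sides of 0.

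The platforms measured the same extracts, so their ratios are repeated measurements and not further replicates. Of the 21 members tested on both, 15 had ratios of the same sign, and the median absolute difference between the platforms was 0.15. Hmgcs1 was separated with the null pools higher on both platforms, and Nsdhl, Elovl6 and Fads1 with the null pools lower, 4 members in all. The matching shares over all genes tested on both platforms were not computed. Whether these 2 counts differ from those of the arrays as a whole is therefore not known. Sc5d differed most in direction, with 0.42 from a dim U74Av2 probe set and -0.14 on MOE430v2. Its other U74Av2 probe set was at -1.07. With the values of an extract averaged over platforms, the null pools were lower for 8 of 21 genes (background 23.5%), which were Fdps, Sqle, Cyp51, Tm7sf2, Nsdhl, Ebp, Elovl6 and Fads1. They were higher for 5 (background 22.1%), which were Hmgcs1, Idi1, Lss, Srebf1 and Fasn. All 21 averaged ratios had 95% intervals within a 2-fold change and 16 within 1.5-fold. Among all 5933 genes the counts were 5167 and 3423.

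**Figure D4:**
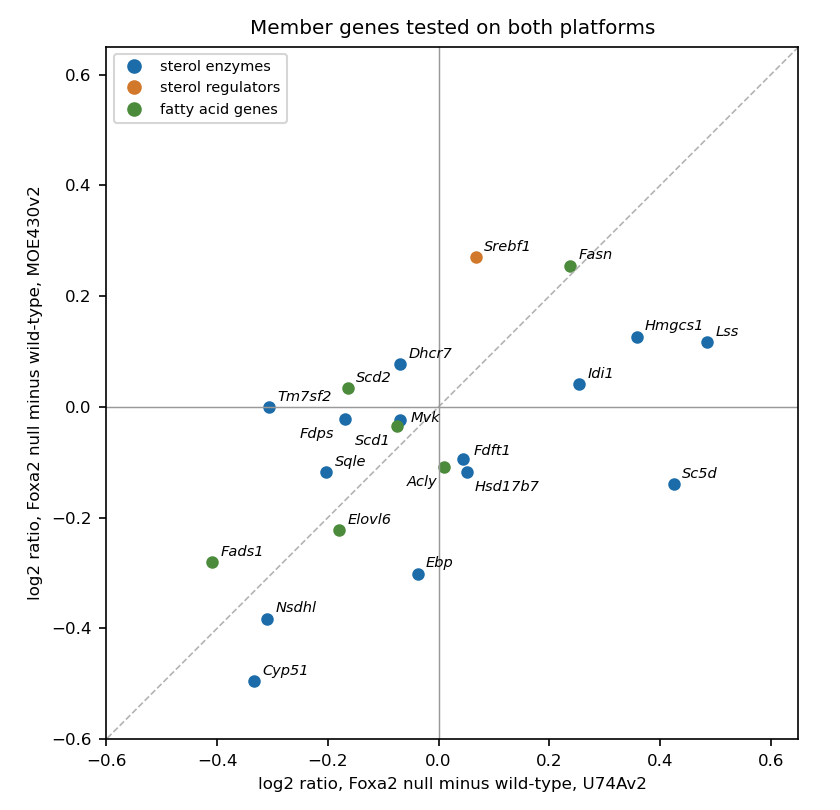
Log2 ratio (Foxa2 null minus wild-type) of the 21 members tested on both platforms, on U74Av2 (horizontal axis) and MOE430v2 (vertical axis), with a dashed line where both are equal. For 15 members both ratios have the same sign, so the point lies at the lower left or the upper right.

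Other genes of the same pathways were read for comparison. Of other sterol synthesis genes, Mvd and Msmo1 were tested. Msmo1, a sterol methyl oxidase, read 5.87 and 5.56 in wild-type and 6.59 and 6.47 in null pools on U74Av2. Both null pools were higher (ratio 0.81, SE 0.24, adjusted p = 0.265 by limma with Benjamini-Hochberg). On MOE430v2 its ratio was 0.19 with overlapping pools. Mvd, the mevalonate diphosphate decarboxylase, had ratios of 0.32 and 0.21. Mbtps1, the protease that makes the first cut in SREBP, had ratios of 0.20 and 0.33. None of the 2 sterol genes nor of the 4 tested genes of SREBP processing (1 on U74Av2) passed the adjusted threshold by limma. At an unadjusted p under 0.05 these held Msmo1 on U74Av2 and Mbtps1 on MOE430v2 (background 10.1% and 13.3%). Mvd, Msmo1 and Mbtps1 all lie on chromosome 8, whose genes had a median ratio of 0.32 over 344 genes on U74Av2 and 0.35 over 739 genes on MOE430v2. None of the 28 members lies on that chromosome.

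None of the genes of sterol uptake, storage and efflux passed the adjusted threshold by limma, 0 of 7 on U74Av2 and 0 of 8 on MOE430v2, and 0 had an unadjusted p under 0.05. Their median ratios were 0.18 and -0.03. Of 25 other genes of fatty acid and glyceride synthesis 11 were tested on U74Av2 and 24 on MOE430v2, with medians of 0.06 and 0.12 and 0 past the adjusted threshold. At an unadjusted p under 0.05 these held 0 genes on U74Av2 and 2 on MOE430v2 (background 10.1% and 13.3%). Mcat, the acyl carrier transferase of mitochondrial fatty acid synthesis, read 9.17 and 9.15 in wild-type and 8.32 and 8.45 in null pools on MOE430v2. Both null pools were lower (ratio -0.77, SE 0.20, adjusted p = 0.172 by limma with Benjamini-Hochberg). Tecr, which completes the elongation cycle and lies on chromosome 8, had a ratio of 0.20. Elovl5, which lengthens polyunsaturated fatty acids, had ratios of -0.27 and -0.11, with both null pools lower on both platforms.

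Lipid metabolism is also a trait of the visceral endoderm, so its markers were set beside the members. Of 19 visceral endoderm markers 15 were tested on U74Av2 and 17 on MOE430v2, and 12 and 15 of these had ratios above 0, with medians of 0.29 and 0.22. The log2 of their summed signal was 13.13 to 13.18 in wild-type and 13.14 to 13.68 in null pools on U74Av2, and 16.46 to 16.55 in wild-type and 16.58 to 16.87 in null pools on MOE430v2. The brightest on MOE430v2 were Ttr, Spink1, Rbp4 and Apoa1, with ratios of 0.10, 0.17, 0.00 and 0.19. Higher ratios were found for genes of lipoprotein assembly and uptake, named after their values were seen, with Apob at 0.60 on U74Av2 and 0.71 on MOE430v2, Apoa4 at 0.72 and 0.56, Mttp at 1.02 and 0.38 and Cubn at 0.48 and 0.52. Lrp2, at -0.10 and -0.32, Cited1, at -0.15 and -0.29, and Apoc2, at 0.29 and 0.24, had overlapping pools on both platforms. Afp was at -0.48 and 0.43, the latter with an adjusted p of 0.0954 by limma. The dimmest 30% of probe sets had been left out, so markers with a signal near 0 were not among those tested. The Mttp probe set on U74Av2 was dim, at 4.98 and 4.51 in wild-type pools. By the adjusted threshold 0 passed by limma, while at an unadjusted p under 0.05 5 were higher and 1 lower on U74Av2 and 7 higher on MOE430v2 (background in either direction 10.1% and 13.3%). Of 10 trophoblast and extra-embryonic ectoderm markers 5 were tested on each platform, with medians of 0.47 and 0.41. The log2 of their sum was 9.97 to 10.33 in wild-type and 10.56 to 10.73 in null pools on U74Av2. On MOE430v2 it was 12.72 to 12.90 in wild-type and 13.11 to 13.27 in null pools. Not every such list was higher. Parietal endoderm markers had medians of -0.09 on U74Av2 (4 of 7 below 0) and -0.24 on MOE430v2 (6 of 8 below 0). Primitive blood markers had medians of -0.02 and 0.01. The study states that null embryos, unlike wild-type ones, do not displace their visceral endoderm and appear enriched for its markers. The part of visceral endoderm or other extra-embryonic tissue in the ratios of the members was not tested.

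**Figure D5:**
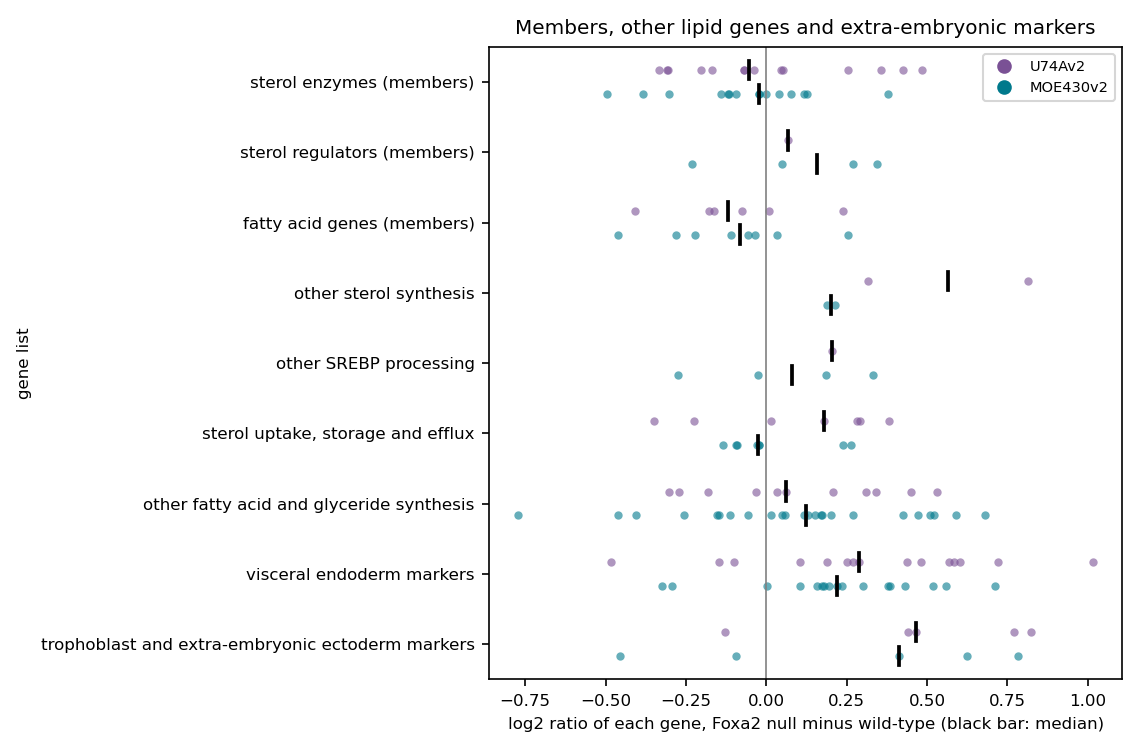
Log2 ratio (Foxa2 null minus wild-type) (horizontal axis) of every tested gene of the 3 member groups, of 4 lists of other lipid genes and of 2 lists of extra-embryonic markers (vertical axis), with a black bar at the median of each list and platform. The medians of the sterol enzymes and the fatty acid genes lie between -0.12 and -0.02. Those of the regulators are 0.07 on U74Av2 (Srebf1 alone) and 0.16 on MOE430v2. Those of the 2 marker lists shown lie between 0.22 and 0.47. Parietal endoderm markers, not drawn, had medians of -0.09 and -0.24.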

How the data were processed

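RNA was measured in 2 wild-type and 2 Foxa2 null pools, each on a U74Av2 and an MOE430v2 array. The deposited values are intensities per probe set on a linear scale that the authors made with MAS5, as the submitters' processing notes state, scaled to a common target per array. Over the probe sets used here the mean after trimming 2% at each end is about 149 on U74Av2 and 498 on MOE430v2. That of U74Av2 differs from the target the methods name. A loess step that the methods describe for MOE430v2 is not in the deposited signals. Groups follow the genotype in the sample labels. Hybridisation days are not tied to pool numbers in the sources used here.

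Here a floor of 0.1 was set, the log2 of the deposited intensities was taken, and MOE430v2 was normalized by cyclic loess, while U74Av2 was left as scaled. Controls (66 and 64 probe sets) and the dimmest 30% (3727 and 13511) were left out, which left 8695 and 31526. Probe sets were named from the platform annotation, updated through gene identifiers. Those with several genes (396 and 932) or none (1193 and 9160) named no gene. The brightest tested probe set stood for a gene. Genotypes were compared with limma, two-sided, using lmFit and a trended eBayes, and p-values adjusted by Benjamini-Hochberg over all probe sets, and for genes on both platforms after averaging each extract, which gave 5933 genes. Gene ratios on a single platform carry the p of their probe set. SE is the moderated standard error by limma and intervals are 95%.

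The members and all other lists were chosen with earlier results of these data known, so lists are described by counts and medians with no test, and every member is named. From the other lipid lists up to 4 genes with an unadjusted p under 0.05 and separated pools were named, and the values of Mvd and Elovl5, beyond that rule, were chosen after their values were seen. The 2 pools per genotype limit the precision. The pipeline was tested on simulated data. Alternatives were no filter, other normalizations, an offset of 16 or 50 before log2, no intensity trend, the mean of the probe sets of a gene, a replicate block and leaving out each pool. The probe-level test of the methods was not repeated. The tools were R 4.3.3 and limma 3.58.1, with tables read by version 1.17.8 of the data.table package.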

Additional observations from a re-analysis of the deposited data

How the results depend on the processing

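No member probe set passed the adjusted threshold on U74Av2 under any alternative, and no member gene did with the platforms averaged. On MOE430v2 the count was 0 without the filter, with quantile normalization, without loess, with the offset and without the intensity trend. It was 3 (Hmgcs1, Mvk and Scd2, all lower) with the replicate block and ran from 0 to 1 when 1 pool was left out, the 1 being the Scd2 probe set 1415824_at without Foxa2 null pool 2. Pool numbers are shared by the genotypes, but the labels do not say that a number marks a shared day. The deviations of same-numbered pools correlated at 0.11 on U74Av2 and 0.09 on MOE430v2 over probe sets, with 2 pairs. With the block, calls over all probe sets went from 24 to 292 on U74Av2 and from 137 to 1643 on MOE430v2, and over the averaged genes from 143 to 502. Without the intensity trend limma called 0 probe sets on each platform and 2 averaged genes. Without the filter it called 3 and 43.

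The median of the regulators on U74Av2 became -0.34 with no filter, which adds the dim Insig1 probe set. With the mean of the probe sets of a gene, the median of the fatty acid genes on MOE430v2 became 0.051 and that of the sterol enzymes over both platforms -0.078. Leaving out 1 pool gave medians from -0.085 to 0.019 for the sterol enzymes and from -0.18 to 0.014 for the fatty acid genes on U74Av2, from -0.087 to -0.00051 and from -0.18 to -0.033 on MOE430v2, and from -0.10 to -0.061 and from -0.20 to -0.0031 over both platforms. For the regulators the ranges were 0.0077 to 0.13 on U74Av2, 0.13 to 0.17 on MOE430v2 and 0.056 to 0.28 over both.

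Of 48 single-gene ratios 22 kept their sign under every alternative. With the mean of the probe sets the sign turned on U74Av2 for Fdps (0.076), Mvk (0.17), Sc5d (-0.32) and Scd2 (0.0097), and on MOE430v2 for Acaca (0.22), Fads1 (0.11), Fdft1 (0.14), Hmgcs1 (-0.21), Hsd17b7 (0.042), Scd1 (0.12) and Scd2 (-0.24). Tm7sf2 on MOE430v2 became 0.0030 without loess and 0.00051 with the offset. Leaving out 1 pool turned the sign on U74Av2 for Cyp51 (-0.78 to 0.11), Ebp (-0.18 to 0.11), Scd2 (-0.44 to 0.11), Sqle (-0.42 to 0.014), Acly (-0.30 to 0.32), Fdft1 (-0.14 to 0.23), Hsd17b7 (-0.069 to 0.17), Dhcr7 (-0.20 to 0.0602), Scd1 (-0.31 to 0.16), Mvk (-0.16 to 0.0199) and Sc5d (-1.02 to 0.84), and on MOE430v2 for Acaca (-0.28 to 0.16), Hsd17b7 (-0.25 to 0.0041), Idi1 (-0.063 to 0.14), Scd1 (-0.17 to 0.11), Srebf2 (-0.0696 to 0.16), Tm7sf2 (-0.21 to 0.22), Fdps (-0.087 to 0.052), Mvk (-0.45 to 0.40), Scd2 (-0.11 to 0.16), Dhcr7 (-0.00802 to 0.17), Fdft1 (-0.19 to 0.0098) and Insig1 (-0.46 to 0.0093). The cause of these changes was not tested.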
